A study of Mus musculus with 10 samples.

Results

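The genes described are 10 imprinted genes that act on growth, namely Igf2, H19, Dlk1, Meg3, Peg3, Plagl1, Mest, Cdkn1c, Grb10 and Nnat. They were picked by name from the 26301 Entrez Gene identifiers of the count files, and all 10 had a row there. Their levels were read in spinal cord of C57BL/6 mice, an inbred laboratory strain, at 4 and 8 weeks of age. At 4 weeks each sex gave 2 libraries, and at 8 weeks each sex gave 3, which makes 10 in all. The labels name no treatment, mutation or transgene. Replicates are numbered, but nothing says that each was its own animal. The p-values therefore reflect the spread among these libraries alone, part or all of which may be technical.

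An imprinted gene is transcribed mainly from the copy inherited from 1 parent, because a methylation mark set in the egg or the sperm silences or spares it. Many of these genes set the rate of growth before and shortly after birth: Igf2, Dlk1, Mest and Peg3 are expressed from the father's copy and mostly favour growth or nutrient supply, while H19, Cdkn1c and Grb10 are expressed from the mother's copy in most tissues and restrain it. In several organs the group is known to decline together after birth as growth slows. Grb10 is an exception in the nervous system, where neurons use the father's copy. An inbred strain gives no way to assign reads to a parent, so the values below are sums over both copies.

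Levels are CPM, counts relative to the library's total, scaled by the trimmed mean of M values (TMM) so that libraries can be compared. They are not divided by gene length, and each gene is therefore compared only with itself. Differences between groups are log2 fold changes with a standard error (SE) from edgeR's quasi-likelihood test across 15540 genes, with Benjamini-Hochberg adjustment and a threshold of 0.05 on the adjusted p.

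Libraries held between 8453559 and 11594610 counts. Neuronal markers of the cord, 6 genes, summed to 3058 to 3249 CPM at 4 weeks and 3451 to 3583 CPM at 8 weeks, and glial markers to between 35017 and 58325 CPM over 6 genes, so the labelled tissue was present in all 10. Markers of other tissues were present too and differed between libraries. The 12 skeletal muscle genes summed to 484 to 1964 CPM at 4 weeks and 43.4 to 153 CPM at 8 weeks, and the 14 fibroblast and collagen matrix genes to 1109 to 1989 CPM and 538 to 844 CPM. Adrenal cortex genes reached 107 and 144 CPM in the male 4-week libraries and lay between 20.0 and 24.3 CPM in the other 8. Lung epithelial genes reached 800 CPM in male 8-week library 2 and 92.4 CPM in male 8-week library 3, against at most 8.42 CPM elsewhere. In such bulk samples fewer cells of a type and less RNA per cell cannot be told apart.

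Of the 10 imprinted genes, 2 fell between 4 and 8 weeks and none of the other 8 passed the test. H19, a long noncoding RNA, was 7.98-fold lower at 8 weeks, and Cdkn1c, which encodes the cell cycle inhibitor p57, was 1.78-fold lower. Both lay lower in 6 of 6 of the 8-week libraries than in every 4-week library, and 4 of the 10 genes had an unadjusted p under 0.05, as had 3263 of the 15540 genes tested. Igf2, the growth factor gene next to H19, stood at a log2 fold change of −0.10 (SE 0.22). Among all genes tested, 5.01% were called lower and 1.61% higher at this comparison, and 4.84% had every 8-week library below every 4-week library. The median log2 fold change was 0.03 over the 10 genes and 0.01 over all genes.

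**Figure D1:**
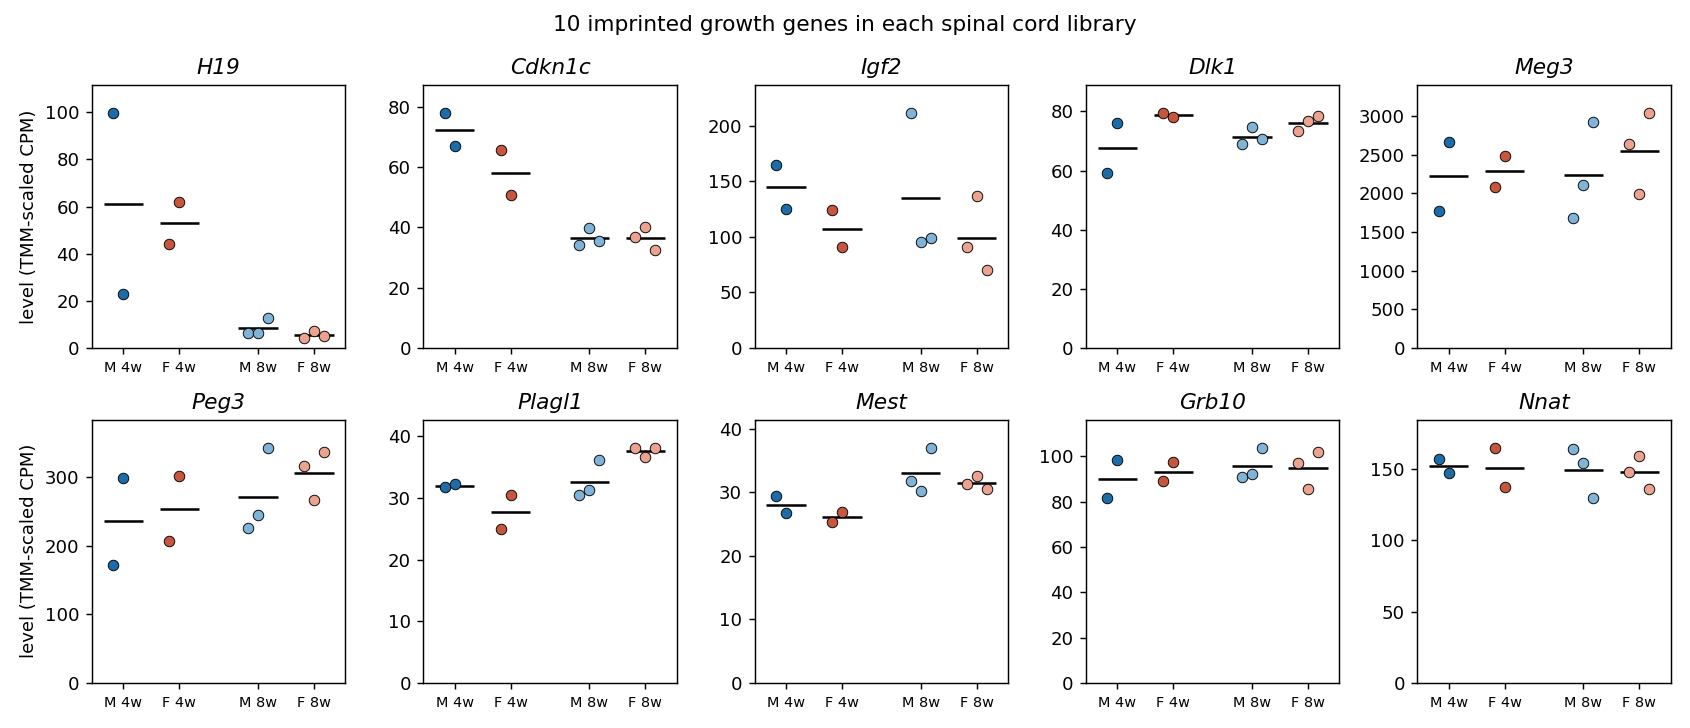
Level of each of the 10 genes in TMM-scaled CPM (vertical axis, from 0) in every library, by sex (M, male, F, female) and age (4w, 8w), with 1 point per library and a line at the group mean. H19 ran from 22.8 to 99.6 CPM at 4 weeks and from 4.44 to 12.9 CPM at 8 weeks, and Cdkn1c also separated the ages, while Igf2, Dlk1, Meg3, Peg3, Plagl1, Grb10 and Nnat overlapped between them.

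H19 (Entrez Gene 14955) is transcribed from the mother's copy and carries within it the hairpin of the microRNA miR-675. The mature arms of miR-675 are shown because H19 is the precursor and the gene that differed most between the ages. They come from RefSeq (GRCm38.p6), read 5′ to 3′, and capitals mark the seed, bases 2 to 8, that pairs with target RNAs.
mmu-miR-675-5p: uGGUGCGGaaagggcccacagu
mmu-miR-675-3p: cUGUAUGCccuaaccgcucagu
The 2 seeds differ, and the separate row for the Mir675 gene held 0 counts in all libraries, so the counts below are those of the H19 row alone.

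H19 stood at 99.6 and 22.8 CPM in male 4-week libraries 1 and 2 and at 44.2 and 61.8 CPM in female 4-week libraries 1 and 2. At 8 weeks it stood at 6.24, 6.62 and 12.9 CPM in male libraries 1 to 3 and at 4.44, 7.43 and 5.10 CPM in female libraries 1 to 3. The ages did not overlap, although the 4-week libraries differed 4.36-fold among themselves, and at 8 weeks male library 3 was the highest. The mean was 57.1 ± 32.5 CPM at 4 weeks (SD, n = 4) and 7.12 ± 3.03 CPM at 8 weeks (SD, n = 6), a log2 fold change of −2.997 (SE 0.34, edgeR adjusted p = 0.000115). These levels rest on 262 to 864 counts per library at 4 weeks and 43 to 138 at 8 weeks.

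Cdkn1c (Entrez Gene 12577) encodes p57, which holds cells out of the division cycle by binding cyclin-dependent kinases. Its level was 77.8 and 66.9 CPM in the male 4-week libraries and 65.5 and 50.7 CPM in the female 4-week libraries. At 8 weeks it was 34.1, 39.8 and 35.6 CPM in males and 36.8, 40.1 and 32.7 CPM in females. All 8-week libraries lay within 1.23-fold of each other and below the lowest 4-week library, female library 2. The mean was 65.2 ± 11.2 CPM at 4 weeks (SD, n = 4) and 36.5 ± 2.995 CPM at 8 weeks (SD, n = 6), a log2 fold change of −0.83 (SE 0.10, edgeR adjusted p = 0.000125).

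Both genes fell in each sex. In males H19 fell by 2.80 on the log2 scale (SE 0.49, edgeR adjusted p = 0.0101) and Cdkn1c fell by 0.99 (SE 0.13, edgeR adjusted p = 0.00167), where 3.22% of all genes were called. In females H19 fell by 3.23 (SE 0.52, edgeR adjusted p = 0.0112) and Cdkn1c fell by 0.67 (SE 0.13, edgeR adjusted p = 0.0244), where 1.45% of all genes were called. The difference between the sexes in these changes did not pass, with an interaction of −0.43 (SE 0.75, edgeR adjusted p = 0.988) for H19 and 0.32 (SE 0.18, edgeR adjusted p = 0.970) for Cdkn1c.

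Some of these calls within a sex depended on the test, a covariate or a single library. By limma-voom the H19 call in males ended (adjusted p = 0.0548). With the collagen matrix score neither gene was called in males (edgeR adjusted p = 0.851 for H19 and 0.127 for Cdkn1c) or in females (0.521 and 0.478). With the muscle score neither was called in either sex. In males the H19 change was −1.38 without male 4-week library 1, and its edgeR adjusted p became 0.0537 without male 8-week library 1 and 0.0561 without male 8-week library 2. In females the H19 call ended without female 4-week library 2 (edgeR adjusted p = 0.0890) and without female 8-week libraries 1 (0.0806) or 3 (0.0742). The Cdkn1c call in females ended without female 4-week library 1 (edgeR adjusted p = 0.254) and without female 8-week libraries 1 (0.118) or 3 (0.119). With the lung-bearing male 8-week libraries 2 and 3 left out, neither gene was called in males (edgeR adjusted p = 0.210 for H19 and 0.0725 for Cdkn1c), and in females the Cdkn1c call ended at 0.0596. Over both sexes both calls held without any 1 library, with log2 fold changes between −3.36 and −2.50 for H19 and between −0.93 and −0.75 for Cdkn1c.

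**Figure D2:**
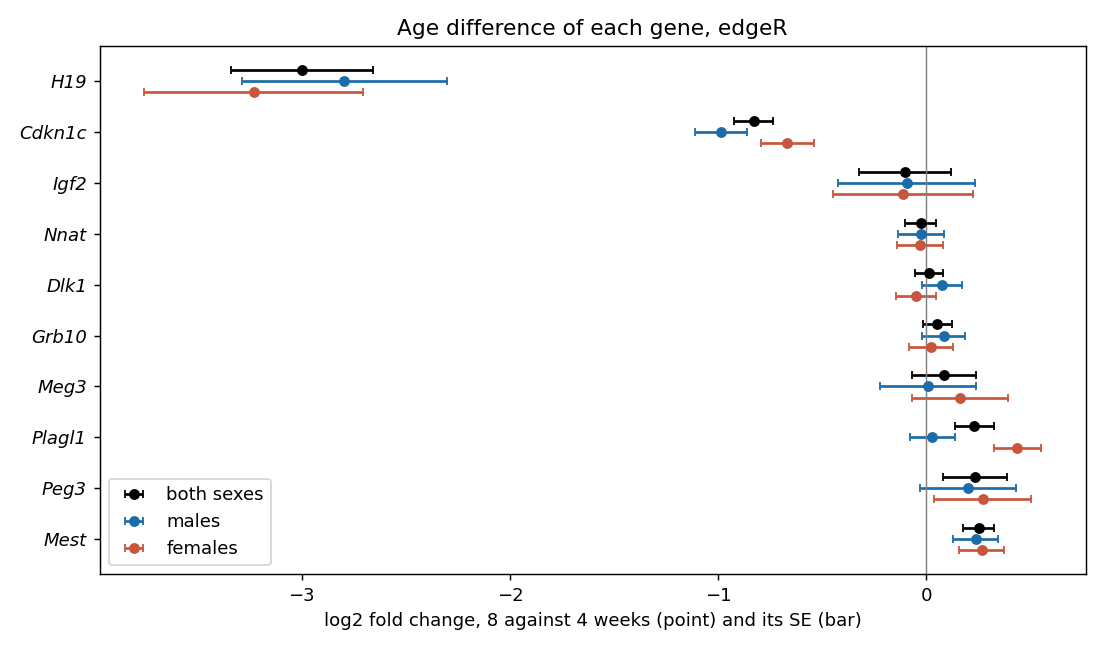
Log2 fold change of 8 against 4 weeks (horizontal axis) for each gene, over both sexes and within males and females, with bars of 1 SE. H19 at −2.997 and Cdkn1c at −0.83 lie to the left of 0 in both sexes, and the other 8 genes lie between −0.10 and 0.25 over both sexes.

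Marker genes of other tissues also differed between the ages, as H19 and Cdkn1c did. Of the 11 cartilage and bone genes 6 were called lower. Acan (0.31, edgeR adjusted p = 0.0792) and Sox9 (0.18, edgeR adjusted p = 0.167) went the other way, Acan with 6 of 6 libraries above every 4-week library. The sum of the list at 4 weeks was highest in male library 1 (232 CPM) and lowest in male library 2 (151 CPM), against 137 to 161 CPM at 8 weeks. Its most abundant gene, Spp1 (61.2 to 97.4 CPM), was not called, so the sum need not follow the genes called. Male 4-week library 1, which held the most H19, also held the most muscle (1964 CPM) and collagen matrix RNA (1989 CPM), and male 4-week library 2, the lowest in H19 at that age, held the least of both (484 and 1109 CPM). Cdkn1c followed this order only in part. Male 4-week library 1 was highest (77.8 CPM), but library 2 (66.9 CPM) lay above both female libraries. Female 4-week library 2, the lowest (50.7 CPM), held 1729 CPM of collagen matrix RNA. At 8 weeks H19 was highest in male library 3 (12.9 CPM), which held 68.2 CPM of muscle RNA, within 43.4 to 153 CPM at that age. All 12 muscle genes and 9 of 14 collagen matrix genes were called lower at 8 weeks. The 12 cell division genes, which mark dividing cells, summed to 69.7 to 124 CPM at 4 weeks and 39.0 to 54.8 CPM at 8 weeks, and 10 of 11 tested were called lower. The part of these tissues cannot be told apart from age. Adding a muscle score to the model gave −0.99 for H19 (edgeR adjusted p = 0.500) and −0.40 for Cdkn1c (0.327), and a collagen matrix score gave −0.78 (0.620) and −0.53 (0.244). Those scores followed age closely (Pearson r = −0.909 and −0.934 over the 10 libraries, a description), and with them the median SE over all genes was 2.26 and 2.53 times as large. Neuronal markers of the cord, given above, and glial markers also separated the ages, the latter at 52904 to 58325 CPM at 4 weeks and 35017 to 42022 CPM at 8 weeks, and fat cell markers went from 30.7 to 200 CPM down to 6.73 to 32.0 CPM, overlapping narrowly; their part was not tested.

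Adrenal cortex genes were high only in the male 4-week libraries, and their part in the result was not tested. In the female libraries the list summed to 20.0 to 23.7 CPM at both ages, and H19 was 44.2 and 61.8 CPM in them at 4 weeks and at most 7.43 CPM at 8 weeks. Over the 8-week libraries of both sexes Fdx1 and Star averaged 12.6 and 9.02 CPM, while Hsd3b1 and Cyp21a1 averaged 0.036 and 0.017 CPM. A sum at this level therefore need not mean adrenal tissue. Without both male 4-week libraries H19 stood at −3.23 (SE 0.26, edgeR adjusted p = 4.38e-05) and Cdkn1c at −0.67 (SE 0.12, edgeR adjusted p = 0.00901).

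**Figure D3:**
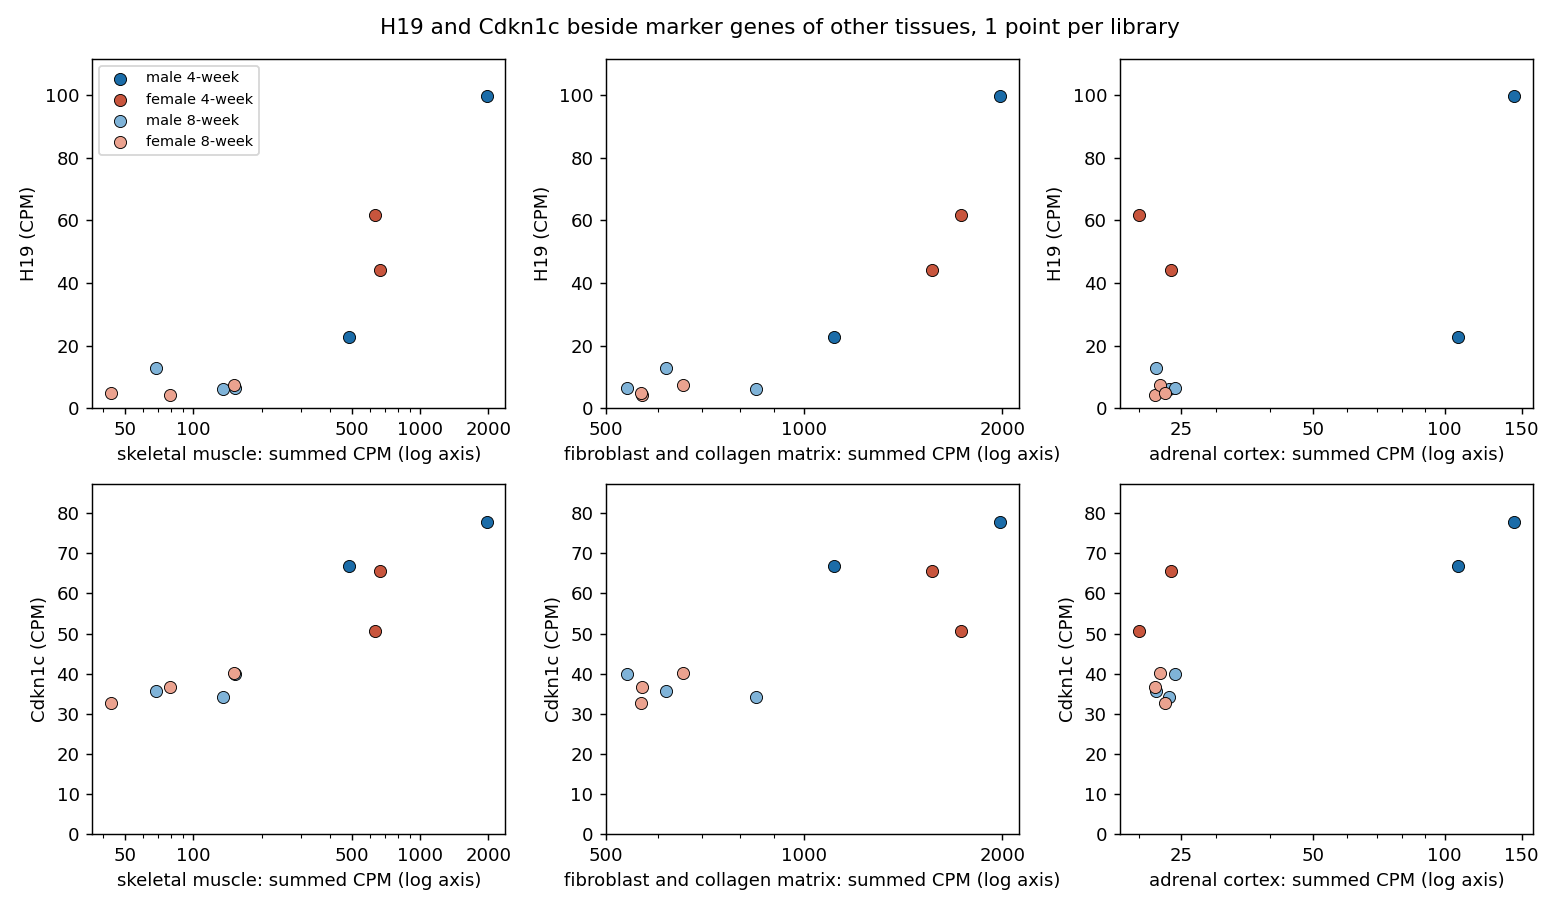
Level of H19 (upper row) and Cdkn1c (lower row) in CPM against the summed CPM of skeletal muscle, fibroblast and collagen matrix, and adrenal cortex genes (log axes), with 1 point per library. The 4-week libraries stand to the right for muscle (484 to 1964 CPM) and collagen matrix (1109 to 1989 CPM), whereas for adrenal cortex only the male 4-week libraries do (107 and 144 CPM).

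Igf2 (Entrez Gene 16002) encodes insulin-like growth factor 2, a ligand that drives fetal growth through the IGF1 and insulin receptors. It lies beside H19 and shares its enhancers, and in the adult nervous system it is made largely by the meninges, choroid plexus and vessels. An intron of Igf2 holds the hairpin of miR-483, whose mature arms are printed for comparison with those of H19. The seeds, in capitals, differ from those of miR-675.
mmu-miR-483-5p: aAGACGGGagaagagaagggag
mmu-miR-483-3p: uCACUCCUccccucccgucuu

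Igf2 did not pass the test. It stood at 164 and 125 CPM in the male and 124 and 90.5 CPM in the female 4-week libraries, and at 211, 95.7 and 98.8 CPM in the male and 90.8, 136 and 70.1 CPM in the female 8-week libraries. The highest and the lowest of the 10 libraries were both at 8 weeks, and the ages overlapped. The means were 126 ± 30.2 CPM (SD, n = 4) and 117 ± 50.8 CPM (SD, n = 6), with a log2 fold change of −0.10 (SE 0.22, edgeR adjusted p = 0.837). The difference was −0.32 (edgeR adjusted p = 0.321) without male 8-week library 1, the highest, and 0.14 without male 8-week libraries 2 and 3. With the collagen matrix score in the model it was 1.63 and called higher (edgeR adjusted p = 0.0164). In that male 8-week library 1, collagen matrix genes summed to 844 CPM, above the other 8-week libraries.

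The ratio between the neighbours separated the ages. For every 100 Igf2 counts there were 60.6 and 18.3 H19 counts in male and 35.6 and 68.3 in female 4-week libraries. At 8 weeks the ratio was 2.96, 6.91 and 13.1 in males and 4.89, 5.44 and 7.27 in females. The highest 8-week ratio, in male library 3, lay below the lowest 4-week ratio, in male library 2.

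Grb10 (Entrez Gene 14783), an adaptor that dampens insulin and IGF receptor signalling, did not pass the test. It lay between 81.8 and 98.6 CPM at 4 weeks and between 85.4 and 104 CPM at 8 weeks, with a log2 fold change of 0.05 (SE 0.07, edgeR adjusted p = 0.726).

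The partners of IGF signalling were read as background to these genes. Of 14 listed, 13 were tested, 1 rose and 1 fell, against 6.62% of all genes called in either direction. Igfbp5, a binding protein that carries IGFs in the matrix, rose by 0.33 (SE 0.08, edgeR adjusted p = 0.0205), with means of 136 ± 14.9 (SD, n = 4) and 172 ± 35.9 CPM (SD, n = 6) and 4 of 6 libraries above every 4-week library. The call was lost on omitting male 4-week library 1 (0.0684 by edgeR after adjustment) or female 8-week library 2 (0.0513). Igf2bp2, an RNA-binding protein that holds Igf2 messenger RNA, fell by 0.85 (SE 0.18, edgeR adjusted p = 0.0105), at only 12 to 32 counts per library, and lay lower in 6 of 6 libraries. Without both male 4-week libraries Igfbp5 stood at 0.20 (edgeR adjusted p = 0.371) and Igf2bp2 at −0.90 (0.135). With the muscle score Igfbp5 stood at 0.41 (edgeR adjusted p = 0.28) and Igf2bp2 at −0.80 (0.434). With the collagen matrix score they stood at 0.37 (edgeR adjusted p = 0.332) and −0.66 (0.548), so neither score kept either call. Igf2r, the imprinted receptor that clears IGF2, stood at 0.10 (SE 0.09), and Igf1r, the signalling receptor, at 0.26 (SE 0.11, edgeR adjusted p = 0.197).

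Dlk1 and Meg3 form a second imprinted pair, the former from the father's and the latter from the mother's copy. Dlk1 (Entrez Gene 13386) encodes a membrane protein of the Notch ligand family that holds precursor cells back from maturing. It stood at 59.2 and 76.1 CPM in male and 79.4 and 78.2 CPM in female 4-week libraries, and at 68.9 to 78.5 CPM over all 8-week libraries. Male 4-week library 1 was the lowest of the 10 and the other 9 lay within 68.9 to 79.4 CPM. The log2 fold change was 0.01 (SE 0.07, edgeR adjusted p = 0.946).

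Meg3 (Entrez Gene 17263) is a long noncoding RNA of neuronal nuclei. It spread from 1777 to 2671 CPM at 4 weeks and from 1677 to 3039 CPM at 8 weeks, with means of 2255 ± 401 (SD, n = 4) and 2396 ± 550 CPM (SD, n = 6). The ages overlapped over nearly their whole range, and the log2 fold change was 0.08 (SE 0.15, edgeR adjusted p = 0.808). Rian and Mirg, noncoding RNAs that follow Meg3 in the same cluster, stood at 0.08 (SE 0.06) and −0.16 (SE 0.12), neither of which passed. RefSeq places the gene Rtl1 across Meg3, and without a stated strand setting their reads cannot be told apart. The Rtl1 row held 286 counts over all libraries against 228567 for Meg3.

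Plagl1 and Peg3 encode zinc finger proteins expressed from the father's copy. Plagl1 (Entrez Gene 22634), known as a regulator of other imprinted genes, stood at 31.7 and 32.2 CPM in male and 24.9 and 30.5 CPM in female 4-week libraries. At 8 weeks it was 30.4, 31.3 and 36.1 CPM in males and 38.1, 36.6 and 38.1 CPM in females. All 3 female 8-week libraries lay above every 4-week library, and the males overlapped. The log2 fold change was 0.23 (SE 0.09, edgeR adjusted p = 0.174) over both sexes, 0.44 (SE 0.11, edgeR adjusted p = 0.0933) in females and 0.03 (SE 0.11, edgeR adjusted p = 0.934) in males. The difference between the sexes was 0.41 (SE 0.16), with an unadjusted p of 0.0226 and an edgeR adjusted p of 0.970.

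Peg3 (Entrez Gene 18616), which acts in cell survival and maternal behaviour, lay between 172 and 301 CPM at 4 weeks and between 225 and 342 CPM at 8 weeks. In 3 of 6 of the 8-week libraries it exceeded every 4-week library, and the log2 fold change of 0.23 (SE 0.15, edgeR adjusted p = 0.423) did not pass. With the collagen matrix score in the model the direction turned for Peg3, to −1.01 (edgeR adjusted p = 0.0355), and for Meg3, to −1.20 (0.0202).

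Mest (Entrez Gene 17294), a hydrolase-like protein tied to fat cell and embryonic growth, missed the threshold although the ages did not overlap. It was 29.4 and 26.8 CPM in male and 25.4 and 27.0 CPM in female 4-week libraries, against 31.7, 30.2 and 37.0 CPM in male and 31.4, 32.5 and 30.6 CPM in female 8-week libraries. The lowest 8-week library, male library 2, lay just above the highest 4-week library, male library 1, and 2.89% of all genes had every 8-week library above every 4-week library. The mean went from 27.1 ± 1.68 (SD, n = 4) to 32.2 ± 2.48 CPM (SD, n = 6), with a log2 fold change of 0.25 (SE 0.07, edgeR adjusted p = 0.0620). RefSeq places Copg2 across Mest, and Copg2 stood at 0.08 (SE 0.06).

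Nnat (Entrez Gene 18111), a small membrane proteolipid of young neurons that lies within the gene Blcap, ran from 137 to 165 CPM at 4 weeks and from 130 to 164 CPM at 8 weeks. The log2 fold change was −0.03 (SE 0.07, edgeR adjusted p = 0.873). Blcap, its host, stood at 0.05 (SE 0.07).

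Sex made no difference that passed the test for any of the 10 genes. Over both ages, where 0.0901% of all genes were called, none of the 10 had an unadjusted p under 0.05 by edgeR, DESeq2 or limma-voom. The 2 nearest to it, as log2 fold changes of females against males, were Dlk1 at 0.14 (SE 0.07, edgeR adjusted p = 0.670) and Igf2 at −0.44 (SE 0.22, edgeR adjusted p = 0.670). The test of whether the age difference differed by sex passed for none of the 10, where 0.0129% of all genes were called, and Plagl1 was the 1 gene with an unadjusted p under 0.05 by edgeR. DESeq2 and limma-voom also called none of the 10 and also gave 1 unadjusted p under 0.05. At 4 weeks, where 0.0708% of all genes were called, Cdkn1c was −0.32 in females against males (SE 0.14, edgeR adjusted p = 0.660), and at 8 weeks, where 0.045% of all genes were called, none of the 10 had an unadjusted p under 0.05.

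The promoters of 8 of the 10 genes matched the RefSeq table (GRCm38.p6) in 15 windows, and H19 and Cdkn1c had no entry. Each window runs from 250 bases before a start to 50 after it, and all 300 bases were searched. The hexamer TGCCGC, the core that the imprint-keeping protein ZFP57 reads when methylated, was searched on both strands (reverse complement GCGGCA). It occurred in 7 of the 15 windows, belonging to 6 genes, against 11.6% of 32851 windows of all genes, and 2 of the 7 are Mest windows that overlap almost fully. The windows with the hexamer held 13 to 45 CpG pairs, against a median of 7 over all windows, so they were also richer in CpG. The hexamer lies before the start for Mest, Plagl1 and Meg3 and after it for Grb10, Igf2 and Nnat. The 3 upstream stretches show the hexamer in capitals, for Mest (2 copies), Plagl1 and Meg3. A match of letters is no evidence of binding, and these data hold no methylation.
Mest, chr6:30737800-30738049, plus strand, GRCm38.p6: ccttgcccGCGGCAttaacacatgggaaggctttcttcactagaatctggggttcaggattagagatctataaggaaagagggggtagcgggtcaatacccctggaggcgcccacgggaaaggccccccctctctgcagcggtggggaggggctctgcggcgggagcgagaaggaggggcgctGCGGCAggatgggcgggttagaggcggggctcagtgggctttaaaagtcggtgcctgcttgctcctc
Plagl1, chr10:13090582-13090831, plus strand, GRCm38.p6: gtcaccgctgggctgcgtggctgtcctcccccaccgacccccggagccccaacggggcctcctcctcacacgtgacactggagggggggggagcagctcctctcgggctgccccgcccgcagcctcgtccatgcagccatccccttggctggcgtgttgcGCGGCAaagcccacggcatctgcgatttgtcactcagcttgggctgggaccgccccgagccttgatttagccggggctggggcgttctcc
Meg3, chr12:109540746-109540995, plus strand, GRCm38.p6: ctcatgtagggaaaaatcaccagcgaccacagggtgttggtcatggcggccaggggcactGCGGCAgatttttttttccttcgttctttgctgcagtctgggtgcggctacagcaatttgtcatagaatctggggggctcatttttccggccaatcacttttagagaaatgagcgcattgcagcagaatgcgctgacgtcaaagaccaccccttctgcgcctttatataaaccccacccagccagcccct
Mest, Plagl1 and Meg3 had age differences of 0.25, 0.23 and 0.08 on the log2 scale, none of which passed.

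Several of the genes varied together between libraries. The 3 genes whose ages did not overlap were left out, and the 21 pairs of the other 7 were compared on log2 CPM over 10 libraries, of which 9 pairs passed after adjustment by Pearson's r and 7 by Spearman's rho. The share of passing pairs among other genes was not computed, and the covariation is not shown to be particular to these 7. Meg3 and Peg3 varied together (Pearson r = 0.879, permutation p = 0.0009, adjusted 0.0063, Spearman rho = 0.867, permutation p = 0.00217, adjusted 0.00829), with r = 0.903 after leaving out the 2 libraries farthest from the median of Meg3. Meg3 and Grb10 did so too (r = 0.887, permutation p = 0.0007, adjusted 0.0063, rho = 0.903, permutation p = 0.00075, adjusted 0.00829), with r = 0.977 without the 2 farthest. Nnat ran opposite to Meg3 (r = −0.867, permutation p = 0.00182, adjusted 0.00764, rho = −0.867, permutation p = 0.00237, adjusted 0.00829), with r = −0.815 without the 2 farthest. Igf2 also ran opposite to Meg3 (r = −0.845, permutation p = 0.00155, adjusted 0.00764, rho = −0.758, permutation p = 0.0148, adjusted 0.0444), with r = −0.690 without the 2 farthest.

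Within the 6 libraries of 8 weeks the same 4 pairs had r of 0.968, 0.864, −0.939 and −0.882. Their exact permutation p were 0.00694, 0.0389, 0.00833 and 0.00694, which adjusted over the 21 pairs were 0.0583, 0.117, 0.0583 and 0.0583, so none passed within that age alone. Meg3 was lowest in male 8-week library 1 (1677 CPM) and male 4-week library 1 (1777 CPM) and highest in female 8-week library 3 (3039 CPM) and male 8-week library 3 (2923 CPM). Miat, another noncoding RNA of neuronal nuclei, stood at 184, 207, 309 and 285 CPM in those libraries. Malat1, an abundant nuclear RNA chosen after its values were seen, stood at 407, 551, 691 and 694 CPM in them, and its highest value, 914 CPM, was in male 4-week library 2. The part of nuclear RNA in the covariation was not tested.

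**Figure D4:**
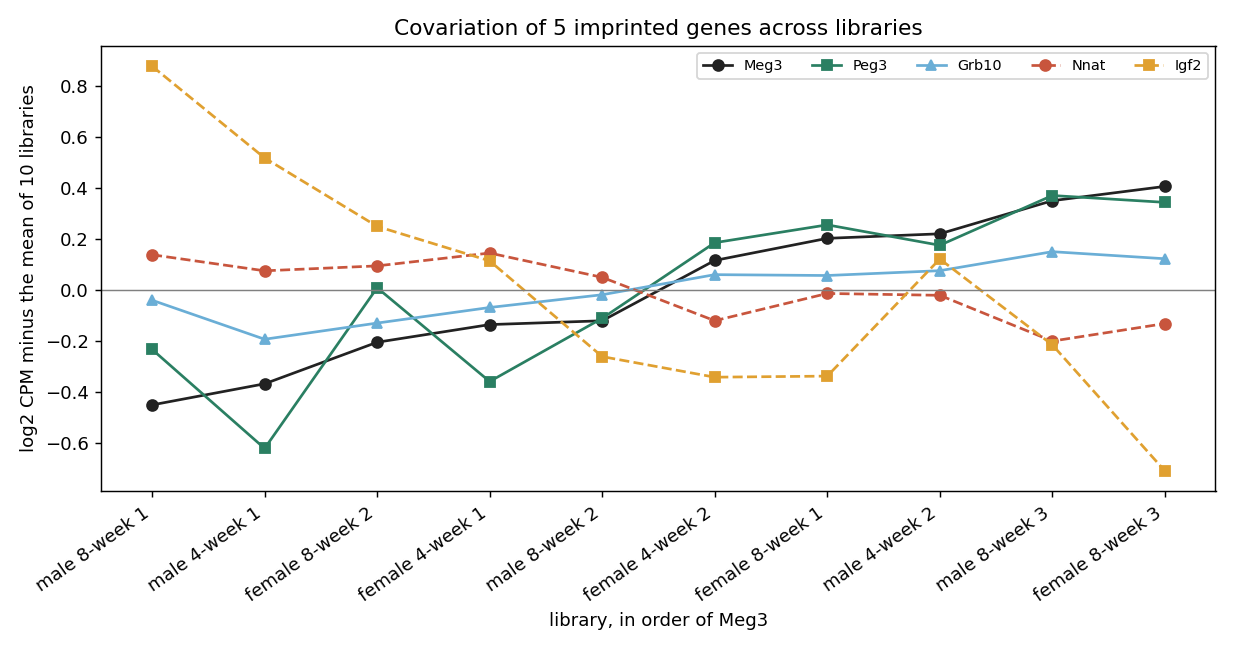
Log2 CPM of 5 genes minus each gene's mean over the 10 libraries (vertical axis), with libraries ordered by Meg3 (horizontal axis). Peg3 (r = 0.879) and Grb10 (r = 0.887) climb with Meg3, while Nnat (r = −0.867) and Igf2 (r = −0.845) decline.

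The genes most like each member were taken as the 3 with the highest Pearson correlation of log2 CPM over the 10 libraries, as a description. For H19 these were Ncf1, an oxidase subunit of phagocytes (0.969), Casq2, a calcium store protein of striated muscle (0.965), and Mmp2, a matrix protease (0.964). For Cdkn1c they were Copb1 (0.968), Actn3, an actinin of fast muscle fibres (0.967), and Mbp, the myelin basic protein (0.965). Igf2 was most like Islr, a gene of matrix-forming fibroblasts (0.968), the genes most like Meg3 included Mapkbp1 (0.984) and Miat (0.967), and Peg3 was most like Ryr2 (0.989), Braf (0.984) and Zmynd11 (0.983). The best match was Smg6 (0.955) for Dlk1, Cplane1 (0.974) for Grb10, Tmem200a (0.962) for Plagl1, Pnma2 (0.960) for Mest and Auh (0.961) for Nnat. All points share the library and its depth. Age was left in, so for H19, Cdkn1c and Mest, whose ages did not overlap, other genes that differ strongly between the ages rank high.

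A chosen list of other imprinted genes, not all that are known, was read in the same fit. Of 48 listed, which are imprinted in at least 1 tissue, 38 were tested, none rose and 2 fell, with a median log2 fold change of 0.06. That is near the share of all genes called (6.62%). Peg12, a gene of the Prader-Willi cluster, fell by 1.66 (SE 0.36, edgeR adjusted p = 0.0129), from 13 to 26 counts per library at 4 weeks to 2 to 10 at 8 weeks, and lay lower in 6 of 6 libraries. Ddc, which makes dopamine and serotonin and lies beside Grb10, fell by 0.40 (SE 0.08, edgeR adjusted p = 0.00707), from 17.8 ± 2.59 (SD, n = 4) to 13.5 ± 1.36 CPM (SD, n = 6), with 5 of 6 libraries below. Without both male 4-week libraries neither was called, at −0.77 (edgeR adjusted p = 0.369) for Peg12 and −0.33 (0.211) for Ddc. With the collagen matrix score neither was called either. The 3 called were Kcnk9, Zdbf2 and Dcn, which is itself 1 of the 14 genes of that score. The count was 6 without male 4-week library 2 and 4 without female 4-week library 2.

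Tssc4 and Cd81, which lie between Igf2 and Cdkn1c, had every 8-week library below every 4-week library, as had 4.84% of all genes. Neither passed: Tssc4 stood at −0.25 (SE 0.07, edgeR adjusted p = 0.0532) and Cd81 at −0.18 (SE 0.06, edgeR adjusted p = 0.0694). Impact and Osbpl5, also of the other imprinted genes, had every 8-week library above every 4-week library, as had 2.89% of all genes. They stood at 0.10 (SE 0.04, edgeR adjusted p = 0.225) and 0.13 (SE 0.06, edgeR adjusted p = 0.267). Of 13 tested neighbours of the 10 genes 1 fell and 1 rose, against 6.62% of all genes called in either direction. Ddc fell and Cobl, an actin nucleator on the other side of Grb10, rose by 0.40 (SE 0.09, edgeR adjusted p = 0.0197), in 6 of 6 libraries. Cobl was not called with the muscle score (0.013) or the collagen matrix score (−0.13, the other direction). Without male 8-week libraries 2 and 3, a fit with a single male 8-week library, it stood at 0.37, and no call is given for that fit. Omitting male 4-week library 1 (0.0590 by edgeR after adjustment), female 4-week library 1 (0.0552) or both male 4-week libraries (0.120) ended the Cobl call. Grb10 itself, between them, stood at 0.05.

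**Figure D5:**
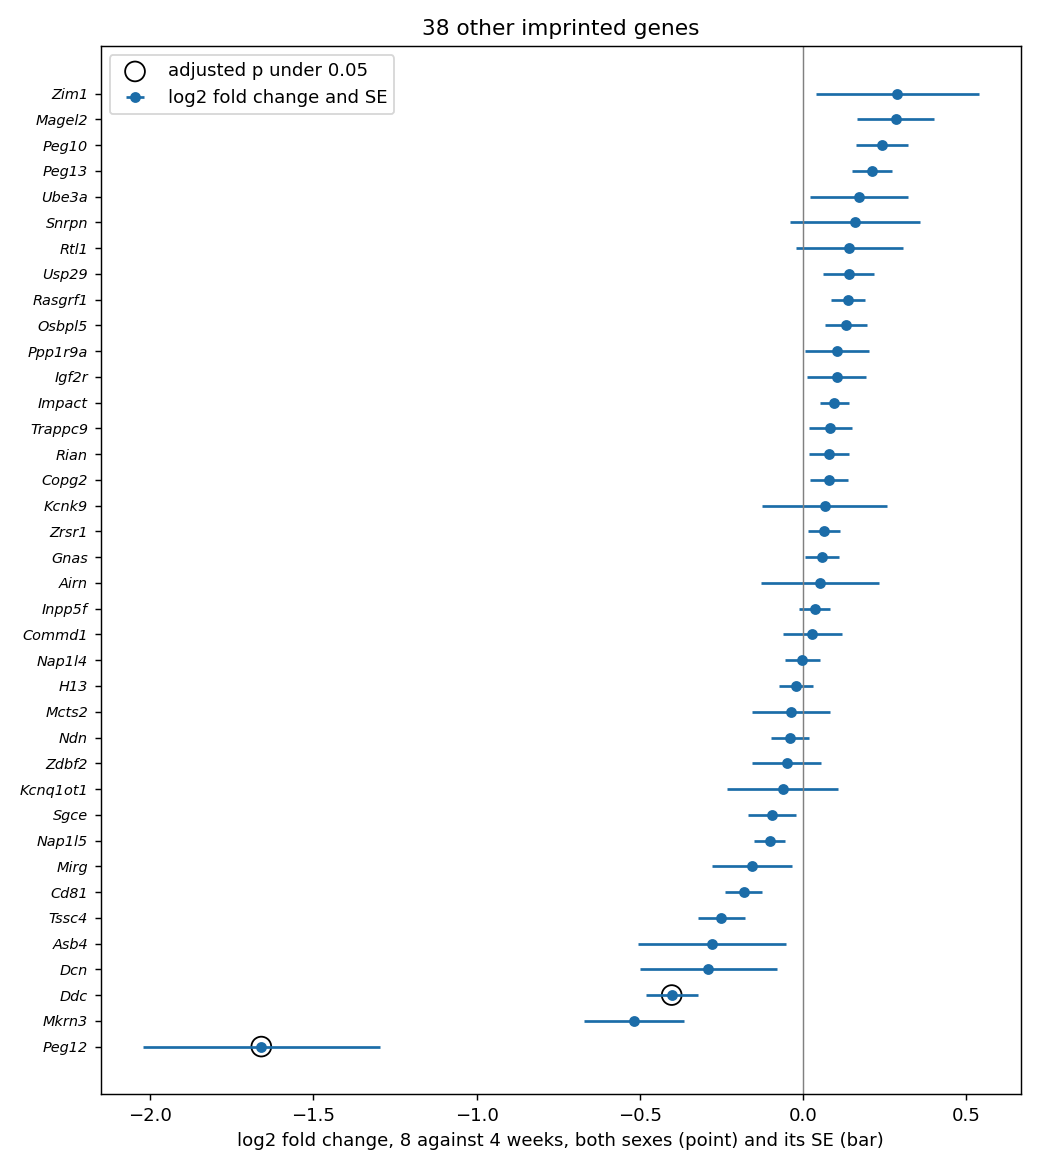
Log2 fold change of 8 against 4 weeks over both sexes (horizontal axis) with bars of 1 SE for the 38 other imprinted genes tested. The 2 circled genes passed the test, Peg12 at −1.66 and Ddc at −0.40, and the other 36 lie between −0.52 and 0.29.

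Of 9 further genes known to decline in juvenile organs as growth slows, 2 fell and 7 did not pass, with a median of −0.23, against 5.01% of all genes called lower and a median of 0.01 over all genes. Ezh2, the histone methyltransferase of dividing precursors, fell by 0.76 (SE 0.14, edgeR adjusted p = 0.00447), from 10.7 ± 1.80 (SD, n = 4) to 6.25 ± 0.95 CPM (SD, n = 6), lower in 6 of 6 libraries. Without both male 4-week libraries it stood at −0.59 (edgeR adjusted p = 0.145). Ezh2 was also not called with the muscle score (−0.34, edgeR adjusted p = 0.653) or the collagen matrix score (−0.23, edgeR adjusted p = 0.786). Sox4, a transcription factor of immature cells, fell by 0.35 (SE 0.10, edgeR adjusted p = 0.0485). This was lost under 7 of 10 single-library omissions (0.0840 to 0.137), by DESeq2 (0.0750) and by limma-voom (0.0525). By edgeR it was lost with RLE size factors (0.0502), library totals (0.0540) and the filter of 1 CPM in 4 libraries (0.0539). The muscle score (0.134) and the collagen matrix score (0.108) ended it too. It held without a filter (0.0478) and with the replicate block (0.0457). Cell division markers, given above beside H19, moved with this list, and their part was not tested.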

How the data were processed

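RNA-seq reads of spinal cord were counted per Entrez Gene identifier by the authors, and the deposited values are raw counts, 1 file per library, with sums of 8453559 to 11594610. TopHat2 2.1.0, featureCounts and the build mm9 are named, per the submitters' processing notes, and for counting options, strand setting and annotation the sources used here say nothing. Symbols came from RefSeq (GRCm38.p6, names only), and 172 of 173 listed genes matched. Groups came from the labels.

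The test was edgeR 4.0.16 under R 4.3.3 (TMM, filterByExpr with a minimum count of 10 and a total of 15, quasi-likelihood test, 2-sided, Benjamini-Hochberg over 15540 genes). A model of sex and age (7 residual degrees of freedom) gave the age and sex differences across all libraries, and a model of the 4 groups (6 residual degrees of freedom) gave the other contrasts. Log2 CPM used a prior count of 2. The scripts were tested on simulated data.

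Named were all 10 members, every gene called for age in the non-marker lists and the 2 of lowest p in each list, and of the 3 genes most like each member some or all; 1 of those for Meg3 is not reported here. Igf1r, Igf2r, Rian, Mirg, Copg2, Blcap and Rtl1 were added as partners or neighbours of members. Impact, Osbpl5 and single marker genes were named after their values were seen. Members and lists were chosen with earlier results of these data known. Alternatives were DESeq2 1.42.0, limma-voom 3.58.1, RLE size factors, library totals, other filters, a replicate block, 2 tissue score covariates, the mean of the 2 within-sex contrasts, and libraries left out.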

Additional observations from a re-analysis of the deposited data

Results flagged for a closer look

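In 20 groups of libraries, 1 for each gene and age, the highest or lowest library was compared with its nearest neighbour by Dixon's 95% critical value, which chance passes in about 1 of 20 groups. It was passed 3 times. H19 stood at 12.9 CPM in male 8-week library 3, against 7.43 CPM in the next 8-week library. Dlk1 stood at 59.2 CPM in male 4-week library 1, against 76.1 CPM in the next 4-week library. Mest stood at 37.0 CPM in male 8-week library 3, against 32.5 CPM in the next 8-week library. Male 8-week library 3 also held lung transcripts (92.4 CPM), and male 4-week library 1 held the most muscle transcripts (1964 CPM); their part was not tested.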

How the results depend on the processing

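H19 and Cdkn1c were the 2 genes called for age over both sexes under each single-library omission, DESeq2, limma-voom, the other scalings and filters, and without either doubted pair of libraries. With the muscle score 0 of the 10 were called, and with the collagen matrix score 3 others (Igf2, Meg3, Peg3). Of the single-gene alternatives for age, 188 kept side and direction, 28 turned and 4 weakened. The interaction and sex counts were 0 in each alternative run. The causes were not tested.

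All genes called for age (1028) became 47 with the muscle score, 429 with the collagen matrix score, 393 without both male 4-week libraries and 474 without male 8-week libraries 2 and 3, and ran from 719 to 1473 over single omissions. Members called in males went to 1 by limma-voom (H19 lost), 0 with the muscle score, 0 without male 8-week libraries 2 and 3, and 1 to 2 over single omissions; with the collagen matrix score the 2 called were Igf2 and Meg3. In females they went to 0 with the muscle score, 1 with the collagen matrix score (Igf2, with H19 and Cdkn1c lost) and 1 without male 8-week libraries 2 and 3, and 0 to 2 over single omissions. Other imprinted genes called went to 4 by DESeq2, 0 with the muscle score and 0 without both male 4-week libraries. Over single omissions the count ran from 2 to 6. With the collagen matrix score 3 were called (Kcnk9, Zdbf2 and Dcn, itself a gene of that score), and Peg12 and Ddc were lost.

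Whether replicate numbers pair the samples was not settled. After subtracting group means, r over 13 same-number pairs ran from −0.213 to 0.236, and 5 exceeded 0.1. Pairs of unlike number were not computed for comparison. With 2 libraries per 4-week group the centred values mirror each other, so both pairs within that age gave 0.211. With the replicate block 2 of the 10 genes and 808 of all genes were called, H19 at −3.17 and Cdkn1c at −0.78, and directions turned for the uncalled age differences of Igf2 (0.091), Meg3 (−0.092), Grb10 (−0.0030) and Nnat (0.048) and the interactions of Igf2 (0.038) and Nnat (0.0017).

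Age differences that changed sign with the muscle score were Igf2 (0.94), Dlk1 (−0.28), Meg3 (−0.97), Peg3 (−0.80), Grb10 (−0.39) and Nnat (0.30). With the collagen matrix score they were Igf2 (1.63), Dlk1 (−0.36), Meg3 (−1.20), Peg3 (−1.01), Plagl1 (−0.024), Grb10 (−0.39) and Nnat (0.37). Without both male 4-week libraries it was Dlk1 (−0.050). Without male 8-week libraries 2 and 3 they were Igf2 (0.14), Dlk1 (−0.022), Meg3 (−0.037) and Nnat (0.021). Over single omissions values ran from −0.062 to 0.071 for Dlk1, −0.019 to 0.23 for Meg3 and −0.072 to 0.029 for Nnat.

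Interactions changed sign by limma-voom for Igf2 (0.034) and Nnat (0.0061), with the collagen matrix score for Igf2 (0.11), Peg3 (−0.0080) and Nnat (0.013), and without male 8-week libraries 2 and 3 for H19 (0.040) and Grb10 (0.011). Over single omissions they ran from −0.32 to 0.45 for Igf2, −1.85 to 0.28 for H19, −0.32 to 0.034 for Dlk1, −0.18 to 0.41 for Meg3, −0.39 to 0.40 for Peg3, −0.048 to 0.12 for Mest, −0.21 to 0.056 for Grb10 and −0.13 to 0.13 for Nnat.

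Sex differences changed sign with the muscle score for H19 (0.12), Meg3 (−0.020), Grb10 (−0.054) and Nnat (0.037), with the collagen matrix score for H19 (0.036), Grb10 (−0.034) and Nnat (0.026), with library totals for Grb10 (−0.010) and without both male 4-week libraries for Grb10 (−0.014). Over single omissions they ran from −0.77 to 0.23 for H19, −0.0065 to 0.12 for Plagl1, −0.034 to 0.052 for Grb10 and −0.064 to 0.024 for Nnat.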
